A study of Schizosaccharomyces pombe with 15 samples.

Results

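Small nucleolar RNA (snoRNA) and small nuclear RNA (snRNA) genes are short non-coding genes, and their surroundings were compared with the peak lists of 4 chromosomal proteins of fission yeast (Schizosaccharomyces pombe). Every gene of chromosomes 1 to 3 that RefSeq annotates with the biotype snoRNA or snRNA was taken, without regard to any measured value. This gave 72 genes of 12606 annotated genes, 66 of them snoRNA genes and 6 snRNA genes. One of the 72, snR92, lies in a stretch of chromosome 2 around the mating-type region that was left out, so 71 genes could be set against the lists. A gene was counted for a protein when a peak of its list overlapped the gene by at least 1 bp or had its summit, the highest point of the peak, within 500 bp upstream of the annotated start. The same count over 7364 other non-coding genes served for comparison.

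The proteins were mapped by chromatin immunoprecipitation and sequencing (ChIP-seq), in which protein is fixed to DNA, fragments are pulled down with an antibody, and stretches with more reads than a control are called as peaks. Atf1 and Pcr1 are bZIP transcription factors that pair with each other. Deb1 also binds DNA, and Orc1 belongs to the origin recognition complex, which sits at replication origins. The 15 samples fall into 8 groups. They are precipitates of Atf1 from cells lacking the sites s1 and s2 (2 samples), of Atf1 (2), Pcr1 (2), Deb1 (2) and Orc1 (2) from cells not labelled with that deletion, input of the Deb1 strain (2), input of the Orc1 strain (2), and 1 precipitate from an untagged strain. All strains were h90 ade6-M210 leu1-32 ura4-D18. The Atf1 and Pcr1 strains carried atf1-3xFLAG-hph or pcr1-3xFLAG-hph, and in addition had the cenH element replaced by tetO sites with ura4 (CenHΔ::9xtetO-ura4). The Deb1 strain carried deb1-3xFLAG-hph, and the Orc1 strain, labelled SPM1047, carried orc1::5xFLAG-orc1-kan. The FLAG tag stood in 3 copies on Atf1, Pcr1 and Deb1 and in 5 copies on Orc1, and the untagged strain had none. All cells, controls included, were grown at 32 °C in rich medium and held at 18 °C for 2 hours, so no list describes cells kept at 32 °C. Fixation took 30 min, and the antibody against FLAG was M2.

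One list per protein was used, with 1980 Atf1, 1553 Pcr1, 350 Deb1 and 1506 Orc1 peaks that could be placed. There is thus no replicate value, the depth of the libraries is unknown, and no list of the untagged or s1- and s2-deleted samples was analysed here. What follows is a description of these lists, and where a share has a 95% interval it is by the exact Clopper-Pearson method, which covers counting error only. The fold given for a peak is the ratio over its control that the authors' peak caller wrote for it.

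Spliceosomal snRNAs (U1, U2, U4, U5 and U6) are the RNA core of the machinery that removes introns. SnoRNAs guide the chemical modification and cutting of ribosomal RNA in the nucleolus. Box C/D snoRNAs direct methylation of the ribose and are bound by Nop56, Nop58, Snu13 and fibrillarin, while box H/ACA snoRNAs direct the change of uridine to pseudouridine and are bound by Cbf5, Gar1, Nhp2 and Nop10. A few, such as U3, U14 and snR30, act in the cleavage of the ribosomal RNA precursor. In yeasts many snoRNA genes stand alone with their own promoter, some are processed from a shared transcript, and some lie in introns of coding genes. RNA polymerase II transcribes most of them, and RNA polymerase III transcribes U6.

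By product name and by the box motifs found at their ends, the 72 genes comprised 30 box C/D genes, 19 box H/ACA genes, 7 entries for a primary transcript that holds snoRNAs, 6 snRNA genes, 2 U3 genes, 3 genes with an ACA near the end and 5 with no box found. Among the 71 placed genes, 44 stood as a unit of their own, 13 lay in an intron of a protein-coding gene, and 14 lay inside a longer non-coding gene on the same strand. A unit of its own means here that no other gene on the same strand contains the gene. The 44 include the 7 primary transcript entries and genes that lie inside a gene on the other strand, such as sno52 in taf9. The 71 genes were short, with a median length of 120 bp (range 47 to 1152 bp) against 597 bp (56 to 7193 bp) for other non-coding genes. The 71 genes formed 58 separate loci, because 8 loci held several of them, 21 in all, and peaks at such loci are counted for each gene they touch.

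In the window of gene and upstream 500 bp, 35 of the 71 genes had a peak of some list, which is 49.3% (37.2 to 61.4%), against 37.9% of other non-coding genes. An Atf1 peak was at 22 of them, 31.0% (20.5 to 43.1%), against 24.0%. A Pcr1 peak was at 19, 26.8% (16.9 to 38.6%), against 19.5%. A Deb1 peak was at 3, 4.23% (0.88 to 11.9%), against 5.28%, and an Orc1 peak was at 18, 25.4% (15.8 to 37.1%), against 20.8%. Each of the 4 single-list intervals included the share of other non-coding genes, so at this number of genes no list was distinguishably more or less frequent at them. Among protein-coding genes the same window held an Atf1 peak in 30.3% of cases, a Pcr1 peak in 22.8%, an Orc1 peak in 16.7% and a Deb1 peak in 5.89%. Most other non-coding genes overlap a protein-coding gene, and this mattered. Restricted to genes that overlap none, a peak of any list was at 56.2% of the snoRNA and snRNA genes (27 of 48) against 67.3% of other non-coding genes (1231 of 1828), and the direction was turned for Atf1 (33.3% against 40.2%), Pcr1 (29.2% against 36.8%) and Orc1 (37.5% against 47.0%). That restriction was added after the values had been seen. With genes on the right part of chromosome 2 left out, the difference from other non-coding genes was 1.13 percentage points for Pcr1, in place of 7.26, and 1.57 for Orc1, in place of 4.52.

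**Figure D1:**
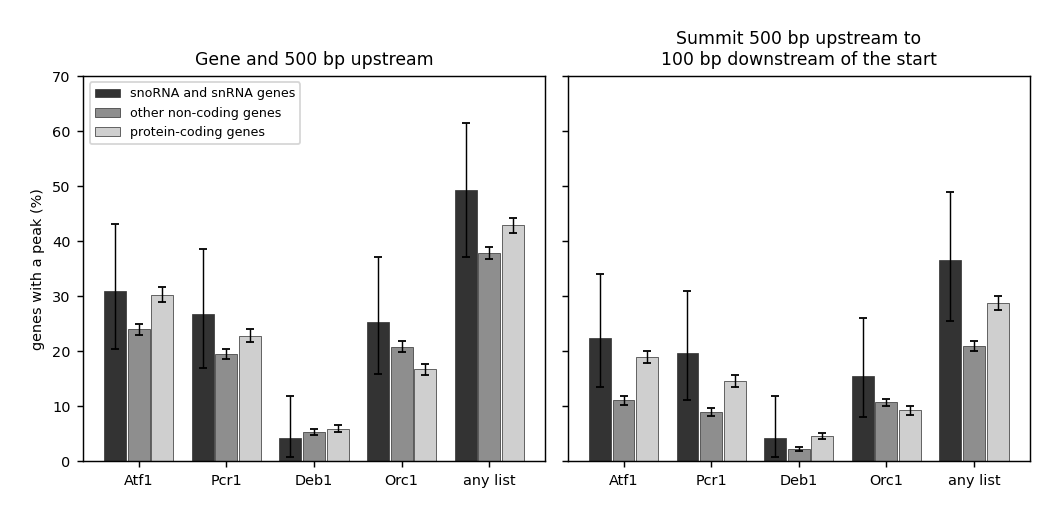
Percentage of genes with a peak of each list (x axis) among the 71 snoRNA and snRNA genes (dark), 7364 other non-coding genes (grey) and 5095 protein-coding genes (light), with bars as exact 95% intervals. On the left, where the gene itself counts, the intervals of the dark bars for single lists include the grey bars, and on the right, where every gene has a window of equal width, the dark bars for Atf1 and Pcr1 (22.5% and 19.7%) stand above the grey ones (11.1% and 8.96%).

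A window of equal width for every gene, with the summit anywhere from 500 bp before the start to 100 bp after it, removes the advantage of long genes. With it an Atf1 summit was at 16 of the 71 genes (22.5%, 13.5 to 34.0%) against 11.1% of other non-coding genes, and a Pcr1 summit at 14 (19.7%, 11.2 to 30.9%) against 8.96%. Orc1 had a summit there at 11 genes (15.5%, 8 to 26%) against 10.7%, and Deb1 at 3 (4.23%, 0.88 to 11.9%) against 2.29%. For Atf1 and Pcr1 the share of other non-coding genes lay below the interval, and for Orc1 and Deb1 it lay inside. Here too the restriction to genes that overlap no protein-coding gene brought both sides together, with Atf1 at 22.9% against 23.0% and Pcr1 at 18.8% against 20.6%.

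All 6 snRNA genes had a peak (54.1 to 100%), while 29 of 65 snoRNA genes had one (44.6%). Orc1 was at 5 of the 6 snRNA genes (83.3%, 35.9 to 99.6%) and at 13 of 65 snoRNA genes. Such shares are not particular to the snRNA genes, since a peak of any list was at 94.7% of transfer RNA genes and 89.4% of ribosomal RNA genes, and an Orc1 peak at 87.7% and 83% of them. The shares of other non-coding genes that overlap no protein-coding gene, given above, also lie inside both intervals. Atf1 and Pcr1 were each at 4 of 6 snRNA genes, and at 18 (27.7%) and 15 (23.1%) of 65 snoRNA genes. Box C/D and box H/ACA genes did not part beyond their intervals, with 11 of 30 (36.7%, 19.9 to 56.1%) and 9 of 18 (26 to 74%) having a peak. By place, 26 of the 44 genes with a unit of their own had a peak (59.1%, 43.2 to 73.7%), 5 of 13 in introns (38.5%, 13.9 to 68.4%) and 4 of 14 inside a longer non-coding gene (28.6%, 8.39 to 58.1%). No Orc1 peak was at any of the 13 intronic genes, which allows a share of up to 24.7%.

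**Figure D2:**
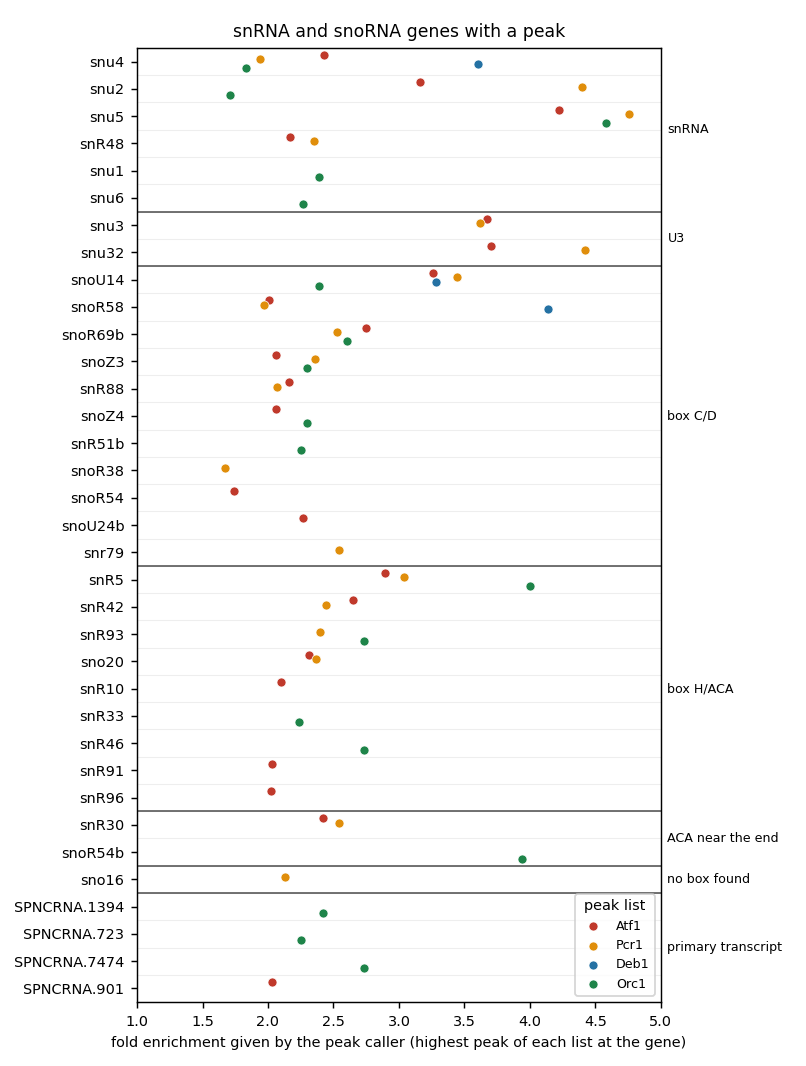
Fold enrichment of the highest peak of each list (x axis) at each of the 35 snoRNA and snRNA genes with a peak, grouped by kind, 1 row per gene and 1 colour per list. Most points lie between 1.7 and 3, and the points above 4 belong to snu5, snu2, snu32 and snoR58, with snR5 at 4.00.

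Peaks at these genes were of ordinary height for their lists. The 22 Atf1 peaks had folds of 1.68 to 4.22 with a median of 2.29, against 2.25 over the whole list, and the 22 Pcr1 peaks 1.67 to 4.76 with a median of 2.38, against 2.41. The 16 Orc1 peaks had folds of 1.71 to 4.58 with a median of 2.39, against 2.22, and 13 of the 16 lay above the list's median. All 3 Deb1 peaks, at 3.28, 3.60 and 4.14, lay below the median of their list, 4.35. Weak calls were frequent. With q as the caller's p-value after correction for multiple testing, 14 of the Atf1 and 16 of the Pcr1 peaks had a −log10 q under 10. With such peaks left out, Atf1 remained at 11.3% and Pcr1 at 8.45% of the genes, and Atf1 and Pcr1 were then no more frequent than at other non-coding genes.

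U4 and U14 were the 2 genes with a peak of all 4 lists, 2.82% of the 71 against 1.72% of other non-coding genes. U4, encoded by snu4, holds U6 inactive by base pairing until the spliceosome is activated. Its peaks had folds of 3.60 for Deb1, 2.43 for Atf1, 1.94 for Pcr1 and 1.83 for Orc1. All 4 summits lay in the promoter, 82, 91, 29 and 21 bp upstream of the start. No start of a coding gene was near, the closest being 1218 bp from the Atf1 summit. U14, encoded by snoU14, is a box C/D snoRNA needed for cutting the 18S ribosomal RNA precursor. Its peaks were of more even height, with 3.44 for Pcr1, 3.28 for Deb1, 3.26 for Atf1 and 2.39 for Orc1. The summits were spread out, with Atf1 393 bp, Pcr1 327 bp, Deb1 224 bp and Orc1 29 bp upstream of the start. The non-coding gene mamRNA is annotated upstream on the same strand. The starts of the snRNA genes transcribed by RNA polymerase II and of U14 are shown to let the promoters be compared, each with 120 bases before the start and the first 10 of the gene, 5′ to 3′ on the gene's strand, from RefSeq ASM294v3. Capitals mark matches on either strand to 3 promoter words, TATAAA (the TATA box), CAGTCACA (HomolD, a core element of ribosomal protein promoters in this yeast) and AGGGTAGGG, which is contained in the neighbouring element HomolE. The regions are chr2:467606-467735 (minus strand) for snu4, chr2:3020085-3020214 (plus) for snu1, chr1:959547-959676 (minus) for snu2, chr2:3236747-3236876 (plus) for snu5 and chr2:1308514-1308643 (plus) for snoU14.
snu4: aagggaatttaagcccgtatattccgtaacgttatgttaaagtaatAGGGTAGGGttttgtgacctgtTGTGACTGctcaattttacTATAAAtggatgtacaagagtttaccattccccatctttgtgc
snu1: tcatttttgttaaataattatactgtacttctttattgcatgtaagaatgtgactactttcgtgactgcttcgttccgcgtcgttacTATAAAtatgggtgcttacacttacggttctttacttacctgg
snu2: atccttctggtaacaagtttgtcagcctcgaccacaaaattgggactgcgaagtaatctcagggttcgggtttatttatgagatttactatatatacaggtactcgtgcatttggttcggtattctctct
snu5: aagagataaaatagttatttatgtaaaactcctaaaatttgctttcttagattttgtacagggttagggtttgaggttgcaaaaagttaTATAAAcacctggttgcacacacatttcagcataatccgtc
snoU14: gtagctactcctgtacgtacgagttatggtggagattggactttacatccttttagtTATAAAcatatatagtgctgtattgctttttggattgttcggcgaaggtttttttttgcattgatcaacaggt
In snu4 the AGGGTAGGG word begins 74 bases, the HomolD box 52 bases and the TATA box 33 bases before the start, and in snu1 and snu5 the TATA box begins 33 and 31 bases before it. No TATAAA was found in the 250 bases before the start of snu2. In snoU14 it begins 63 bases before the annotated start.

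The other snRNA genes differed in where their summits lay. U1, encoded by snu1, pairs with the 5′ splice site. In the window it had an Orc1 peak only, with a fold of 2.39 and the summit 36 bp into the gene. U6, encoded by snu6, forms the catalytic centre of the spliceosome. It too had an Orc1 peak only there, with a fold of 2.27 and the summit 75 bp into the gene. The U6 gene holds an intron from base 47 to base 96 of the gene, and a B box, the internal promoter element of RNA polymerase III that tRNA genes also carry, was found at bases 69 to 77 as GTTCGAGTC. The Orc1 summit thus fell within the box, but the peak spans the whole gene and does not place Orc1 on the box itself. U2, encoded by snu2, pairs with the branch site of introns. Its Orc1 peak, with a fold of 1.71, had its summit 1 bp into the gene. The Atf1 and Pcr1 peaks that overlap U2 were higher, at 3.16 and 4.40, but were centred 728 and 673 bp downstream of its start. They lay 183 and 238 bp from the start of the protein-coding gene sno1, the nearest annotated start.

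U5, encoded by snu5, aligns the exons for joining and carried the highest peaks of all the genes in 3 lists. Its folds were 4.76 for Pcr1, 4.58 for Orc1 and 4.22 for Atf1, and the Orc1 peak ranked 29 of 1526. These summits lay beyond the 3′ end of the gene, 253 bp for Pcr1, 389 bp for Orc1 and 214 bp for Atf1, and the nearest coding start was 784 bp or more from each of them. The nearest annotated start of any kind was that of the non-coding gene SPNCRNA.6024, 158 bp from the Pcr1, 22 bp from the Orc1 and 197 bp from the Atf1 summit. A second Atf1 peak, of fold 1.68, had its summit 281 bp upstream. The sixth gene of biotype snRNA, snR48, is known in budding yeast as a box C/D guide. It lies in an intron of rps3, which encodes a ribosomal protein. Its Atf1 and Pcr1 peaks, of fold 2.17 and 2.35, were centred 73 and 89 bp from the start of rps3, and that promoter holds a HomolD box 155 bases before snR48.

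**Figure D3:**
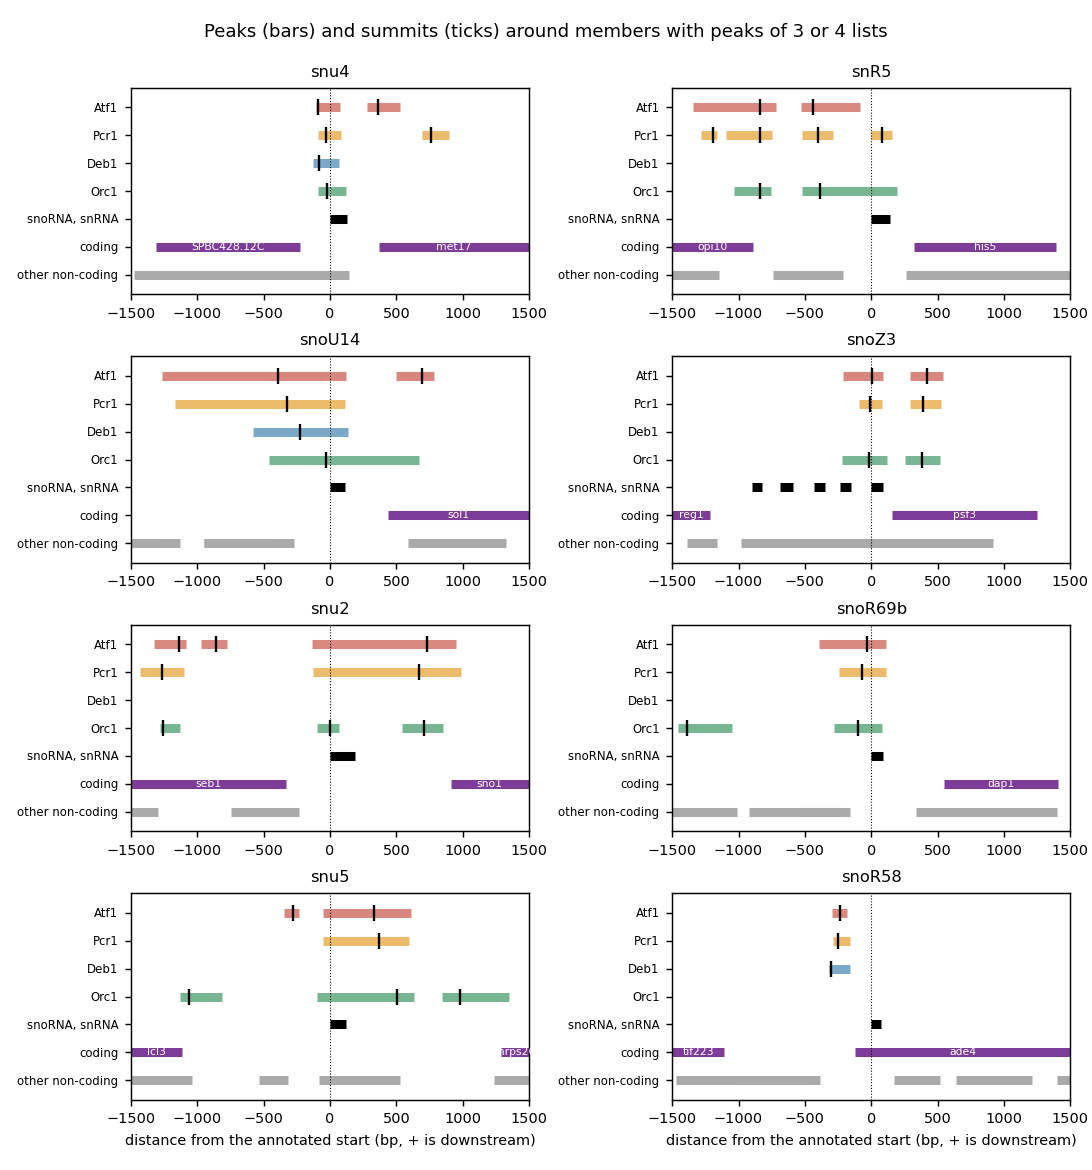
Peaks of the 4 lists (coloured bars, with a black tick at each summit) and annotated genes around the 8 snoRNA and snRNA genes with peaks of 3 or 4 lists, drawn by distance from the annotated start in bp with the gene reading left to right. At snu4, snoR69b and snoZ3 the summits gather within about 100 bp of the start, at snu5 and snu2 the higher Atf1 and Pcr1 summits lie beyond the gene, and at snoR58 they lie upstream of ade4.

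The third gene with a Deb1 peak was snoR58, a box C/D gene in an intron of ade4, which encodes the enzyme of the committed step of purine synthesis. The Deb1 peak had a fold of 4.14, with Atf1 at 2.01 and Pcr1 at 1.97. The summits lay 303, 236 and 250 bp upstream of the snoRNA, which put them 182, 115 and 129 bp from the start of ade4 and outside it. All 3 genes with a Deb1 peak thus also had Atf1 and Pcr1 peaks, as most other non-coding genes with Deb1 did, 73.5% of which had Atf1 and 70.7% Pcr1. The Deb1 summit at snoR58 was the only one of the 3 with the word GGTAACA within 100 bp, a word that 25.7% of all Deb1 summits have and that was picked out of Deb1 summits in an earlier search of these same lists. The 201 bases around that summit are chr1:5366500-5366700, shown on the minus strand, the strand of snoR58, with the word in capitals as it reads on this strand (TGTTACC).
snoR58, Deb1 summit: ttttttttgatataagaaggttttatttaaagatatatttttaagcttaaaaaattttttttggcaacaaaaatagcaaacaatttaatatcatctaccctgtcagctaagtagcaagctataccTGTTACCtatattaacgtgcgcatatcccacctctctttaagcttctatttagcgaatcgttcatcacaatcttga
The word starts 25 bases downstream of the summit. The Deb1 summit at snu4, by contrast, had no such word and was the only one of 350 Deb1 summits (0.286%) with a HomolD box within 100 bp.

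Peaks of Atf1, Pcr1 and Orc1 without Deb1 met at 5 genes, of which snu2 and snu5 are described above. SnoR69b, a box C/D gene standing alone, had summits close to its start, with Atf1 at 2.75 (29 bp upstream), Pcr1 at 2.53 (66 bp) and Orc1 at 2.60 (100 bp). Its Pcr1 and Orc1 positions are midpoints of the peaks, used where no summit inside the peak was given. SnoZ3 lies in the snoZ transcript, downstream of the box C/D genes snoZ8, snoZ7, snoZ5 and snoZ4. At its start Pcr1 had a fold of 2.36, Orc1 of 2.30 and Atf1 of 2.06, with summits 6 bp upstream, 14 bp upstream and 5 bp inside. The Atf1 and Orc1 peaks also reach snoZ4, which is counted for them. SnR5, a box H/ACA gene, had an Orc1 peak of fold 4.00, ranking 75 of 1526, with Pcr1 at 3.04 and Atf1 at 2.89, all with summits 389 to 440 bp upstream. Those summits were nearest to the start of a long non-coding RNA gene, SPNCRNA.1499. The starts of snoR69b (chr1:4154792-4154921, plus strand) and snR5 (chr2:2265908-2266037, plus) are shown beside those of snR40 (chr1:431100-431229, plus), a box C/D gene, and snR101 (chr1:2789589-2789718, plus), a box H/ACA gene, which had no peak in the window. The same words are in capitals.
snoR69b: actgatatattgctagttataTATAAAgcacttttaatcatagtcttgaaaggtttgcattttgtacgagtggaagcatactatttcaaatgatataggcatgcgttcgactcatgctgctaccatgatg
snR5: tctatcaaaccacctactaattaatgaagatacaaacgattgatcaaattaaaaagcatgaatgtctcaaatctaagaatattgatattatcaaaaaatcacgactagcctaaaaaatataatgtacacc
snR40: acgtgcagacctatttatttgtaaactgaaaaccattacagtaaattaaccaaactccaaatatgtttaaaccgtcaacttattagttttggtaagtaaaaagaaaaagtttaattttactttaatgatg
snR101: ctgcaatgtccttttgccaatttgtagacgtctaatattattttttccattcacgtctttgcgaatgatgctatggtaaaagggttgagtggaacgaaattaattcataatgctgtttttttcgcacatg
None of these 4 starts holds a HomolD box or AGGGTAGGG in the bases shown, and of the 4 only snoR69b holds TATAAA there, beginning 99 bases before its start.

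The 2 U3 genes, snu3 and snu32, encode the snoRNA that base-pairs with the ribosomal RNA precursor to start its processing. Both had Atf1 and Pcr1 peaks and no Deb1 or Orc1 peak in the window. At snu3 the folds were 3.67 for Atf1 and 3.62 for Pcr1, with summits 268 and 237 bp beyond the annotated end. At snu32 they were 3.70 for Atf1 and 4.42 for Pcr1, with the Atf1 summit 166 bp beyond the end and the Pcr1 summit inside the gene, 241 bp from its start. The copies are alike over 349 aligned bases at 87.7% identity, with a longest shared run of 90 bases, so reads from them could in part be interchangeable. That stretch begins 181 bases before the annotated start of snu3 and 59 bases before that of snu32, which means that the annotated intervals of the 2 copies are set off from each other by 122 bases. The ATF/CRE core TGACGT, part of the palindrome that Atf1 and Pcr1 recognise, was found near both. The Atf1 summit of snu3 (chr1:987202-987402, shown on the minus strand, that of the gene) and the Pcr1 summit of snu32 (chr2:3958745-3958945, minus strand, list position moved as described for the right part of chromosome 2) are shown with 100 bases on each side and the core in capitals on either strand.
snu3, Atf1 summit: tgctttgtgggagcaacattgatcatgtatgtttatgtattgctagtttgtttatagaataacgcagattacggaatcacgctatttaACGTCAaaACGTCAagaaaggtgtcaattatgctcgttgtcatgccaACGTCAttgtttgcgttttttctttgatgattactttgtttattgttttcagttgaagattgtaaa
snu32, Pcr1 summit: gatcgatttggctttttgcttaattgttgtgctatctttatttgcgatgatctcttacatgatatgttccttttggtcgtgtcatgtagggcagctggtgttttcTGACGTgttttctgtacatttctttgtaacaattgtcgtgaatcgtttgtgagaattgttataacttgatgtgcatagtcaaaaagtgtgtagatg
The snu3 summit has the core as ACGTCA beginning 12 and 4 bases upstream and 35 bases downstream of the summit, and lies 282 bp from the start of cid13. The snu32 summit has 1 core beginning 5 bases downstream of it, within the gene.

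With the U3 peaks included, the core was about as frequent as in the whole Atf1 list. Within 100 bp of the summit it stood at 3 of the 22 Atf1 peaks (13.6%), against 15.7% of the list, and at 2 of the 22 Pcr1 peaks (9.09%), both at U3 genes, against 14.2%. The Atf1 summits with a core other than that of snu3 were those at snR96 and snoU24b, at 65 bases from the summit. In the promoters, taken as 250 bases before to 50 bases after the start, TGACGT on either strand was in 3 of 72 (4.17%) against 5.47% of all 12574 promoters of that length.

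The remaining box C/D genes with a peak had 1 or 2 lists. SnR88 had Atf1 at 2.16 and Pcr1 at 2.07, with summits 24 bp upstream and 9 bp inside. SnR51b had Orc1 at 2.25, 28 bp inside, and snr79 had Pcr1 at 2.54, 84 bp inside. All of these summits were thus within 100 bp of the start. SnoU24b in an intron of cpc2 had Atf1 at 2.27, snoR54 in an intron of gua1 had Atf1 at 1.74, and snoR38 had Pcr1 at 1.67, the lowest fold among the genes. All 3 lie in introns, and the peaks of snoR54 and snoR38 rank 1825 of 1995 and 1552 of 1567 in their lists. Among box H/ACA genes, snR42 had Atf1 at 2.65 and Pcr1 at 2.44, with summits nearest to php4, at 168 and 246 bp from its start. Sno20 had Atf1 at 2.31 and Pcr1 at 2.37, both inside the gene and 43 and 67 bp from its start. The genes snR42 and sno20 are also 2 of those with a HomolD box. SnR93 had Orc1 at 2.73 and Pcr1 at 2.40, snR46 had Orc1 at 2.73 and snR33 had Orc1 at 2.24. SnR10, which in budding yeast acts in ribosomal RNA processing, had Atf1 at 2.1, and snR91 and snR96 had Atf1 at 2.03 and 2.02. Each of these 3 had 1 list only. Of the genes with only an ACA near the end, snR30, needed for 18S ribosomal RNA, had Atf1 at 2.42 and Pcr1 at 2.54 with both summits inside the gene. SnoR54b, of the same group, had an Orc1 peak of fold 3.94, ranking 86 of 1526, centred 204 bp beyond its end. The kind of snoR54b is uncertain, since 69.1% of the bases of the box C/D gene snoR54 are identical in it. Sno16, with no box found, had Pcr1 at 2.13. Of the primary transcript entries, SPNCRNA.7474 had Orc1 at 2.73, SPNCRNA.1394 at 2.42 and SPNCRNA.723 at 2.25, and SPNCRNA.901 had Atf1 at 2.03.

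The 36 genes without a peak in the window were 19 box C/D genes, 9 box H/ACA genes, 4 with no box found, 3 primary transcripts and 1 with an ACA near its end. The box C/D genes were sno52, snR40, snoZ8, snoZ7, snoZ5, snR41, snR70, snoZ16, snoR39a, snr62, snoR56, snoU24, snoR69, snoZ15, snoR39b, snoZ30, snoU18, snoR47 and snoR68. The box H/ACA genes were snR97, snR98, snR101, snR90, snR3, snR95, snR36, sno12 and snR94. The others were snoR02, snR191, SPNCRNA.498, snoR61, SPNCRNA.814, SPNCRNA.1483, SPNCRNA.1650 and SPNCRNA.1709.

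Lists met at the genes about as often as elsewhere. Of the 35 genes with a peak, 18 had 1 list, 9 had 2, 6 had 3 and 2 had 4. Pcr1 was at 15 of the 22 genes with Atf1 (68.2%) against 69.6% of other non-coding genes with Atf1, and Atf1 was at 15 of the 19 genes with Pcr1 (78.9%) against 85.7%. An Orc1 peak was at 8 of the 22 genes with Atf1 (36.4%) against 38.1%. The 63 separate peaks behind these counts had their nearest annotated start at a snoRNA or snRNA gene in 35 cases and at a protein-coding gene in 15, and 12 had their summit inside a protein-coding gene. For Orc1 no peak of the 16 was nearest to a coding start, while for Pcr1 8 of 22 were.

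Right at the start, an Orc1 summit within 100 bp on either side was found at 10 of the 71 genes (14.1%, 6.97 to 24.4%) against 4.97% of other non-coding genes. They were snu1, snu2, snu4, snu6, snoU14, snoZ3, snoR69b, snR46, snR51b and SPNCRNA.7474, the last of which is the transcript that holds snR46. The snRNA genes made up 4 of these, so 4 of 6 had such a summit. Atf1 had one at 9 genes (12.7%, 5.96 to 22.7%) against 4.83%, of which snR91 and SPNCRNA.901 share 1 summit. Pcr1 had one at 7 (9.86%, 4.06 to 19.3%) against 4.1% and Deb1 at 1 (1.41%, 0.0357 to 7.6%) against 0.937%, both with the other share inside the interval. Transfer RNA genes, which RNA polymerase III transcribes, had far more, with an Orc1 summit within 100 bp of the start at 70.2% of 171 genes. The counts within 100 bp of the start were not restricted to genes that overlap no protein-coding gene. With that restriction, the wider window of equal width gave Orc1 at 22.9% against 26.3% and Atf1 at 22.9% against 23%.

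**Figure D4:**
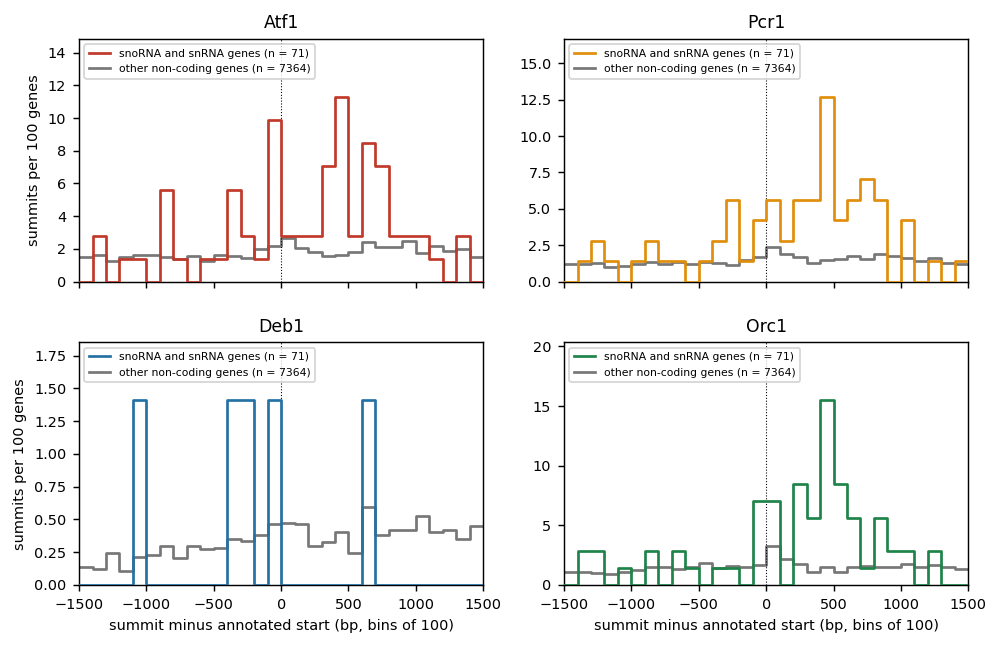
Summits per 100 genes (y axis, scale differing between panels) in bins of 100 bp by distance from the annotated start (x axis, positive downstream) for the 71 snoRNA and snRNA genes (coloured) and 7364 other non-coding genes (grey), 1 panel per list. For Atf1, Pcr1 and Orc1 the coloured line is highest 400 to 500 bp downstream of the start, beyond the end of most of the short genes, and for Orc1 it reaches 15.5 there.

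The profile of summits around the starts was highest not upstream but downstream, past the end of the genes. This was noticed in the profile, so the count that follows was chosen after the values had been seen. A summit within 500 bp beyond the annotated end was found for Orc1 at 29 of the 71 genes (40.8%, 29.3 to 53.2%) against 8.38% of other non-coding genes. Pcr1 had one at 21 (29.6%, 19.3 to 41.6%) against 8.54%, Atf1 at 20 (28.2%, 18.1 to 40.1%) against 10.5%, and Deb1 at 1, snu3 (1.41%), against 2.69%. Any list had one at 38 genes (53.5%, 41.3 to 65.5%) against 19.6%. The upstream side also had more summits than at other non-coding genes for Atf1 and Pcr1. A summit within 500 bp upstream of the start was found for Atf1 at 14 genes (19.7%, 11.2 to 30.9%) against 8.62% and for Pcr1 at 11 (15.5%, 8 to 26%) against 6.8%. For Orc1 it was found at 7 genes (9.86%, 4.06 to 19.3%) against 7.78% and for Deb1 at 3 (4.23%, 0.88 to 11.9%) against 1.82%, both with the other share inside the interval. Other non-coding genes under 300 bp, which are closer in length, had an Orc1 summit beyond the end in 8.29% of 1569 cases. Among genes that overlap no protein-coding gene, the difference beyond the end kept its direction, with Orc1 at 47.9% (23 of 48, 33.3 to 62.8%) against 16.5% and Pcr1 at 31.2% (18.7 to 46.3%) against 14.6%. Atf1 was at 27.1% (15.3 to 41.8%) against 16.8%, a share inside the interval. Upstream of the start the same restriction gave 20.8% against 16.7% for Atf1, 16.7% against 14.1% for Pcr1 and 14.6% against 17.1% for Orc1. With the right part of chromosome 2 left out, the Atf1 difference beyond the end was 10.7 percentage points, in place of 17.7.

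The Orc1 summits beyond the ends belonged to 24 separate peaks at 23 loci, and their distance from the end had a median of 286 bp. Of these 24 peaks, 9 had the summit in a protein-coding gene, 6 lay within 500 bp upstream of a coding start, and 7 were also counted in the window of gene and upstream 500 bp of the same or a neighbouring snoRNA or snRNA gene. Their folds ran from 1.39 to 4.58 with a median of 2.25, against 2.22 over the list. Strong peaks were few, and with a fold of at least 3 required, Orc1 was beyond the end of 2.82% of the genes against 2.06% of other non-coding genes. Those 2 genes were snu5 (4.58) and snoR54b (3.94). With a −log10 q of at least 10 required, Orc1 remained at 31.0% against 5.58%, Pcr1 at 8.45% against 3.60% and Atf1 at 7.04% against 4.47%. Of the 20 separate Pcr1 summits beyond the ends, 13 were in a protein-coding gene and 5 within 500 bp upstream of a coding start. Of the 20 separate Atf1 summits, 10 were in a protein-coding gene and 5 within 500 bp upstream of a coding start. None of the 13 intronic genes had an Orc1 summit beyond the end (0 to 24.7%), an interval that includes the 8.38% of other non-coding genes. Genes with a unit of their own had one in 21 of 44 cases (47.7%, 32.5 to 63.3%). Those inside a longer non-coding gene had one in 8 of 14 (57.1%, 28.9 to 82.3%). The latter groups share peaks, since snR3, snR46 and snoR68 have the same summits as the primary transcripts that hold them. Within the 14, snR41 and snR70 share a summit, as do snoZ4 and snoZ5.

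Genes without a peak in the first window were often among them. Sno52 had an Orc1 peak of fold 2.77 and a Pcr1 peak of 3.10, centred 192 and 229 bp beyond its end in the coding gene taf9, which overlaps it on the other strand, and snr62 had an Orc1 peak of fold 2.61 centred 340 bp beyond its end. SnR36 had Orc1 at 1.97, 258 bp beyond, and sno12 had Orc1 at 2.43 and Pcr1 at 2.16, 309 and 332 bp beyond. None of these 4 had a peak in the first window. SnR90, likewise without one, had Orc1 at 2.12, Pcr1 at 2.29 and Atf1 at 2.03, 206, 176 and 150 bp beyond. Among genes described above, snu1 had Atf1 at 2.80 and Orc1 at 2.34, 315 and 287 bp beyond, in the region upstream of zng1. Snu32 had Orc1 at 2.68, 312 bp beyond, and snu3 had Deb1 at 3.10 and Orc1 at 1.99, 400 and 247 bp beyond, upstream of cid13. Summits of 3 or more lists lay beyond the end of 12 genes (16.9%, 9.05 to 27.7%), against 2.47% of other non-coding genes, and snu3 had all 4 lists there. The 12 were snu5, snu3, snR30, snR33, snR88, snR90, snR93, snr79, sno20 and the neighbours snoZ3, snoZ4 and snoZ5. SnoZ4 and snoZ5 are counted from the same summits, those at the start of snoZ3, so the 12 genes are not independent of each other. The share of 2.47% is over all other non-coding genes. Those that overlap no protein-coding gene had higher shares of single lists beyond the end, with Orc1 at 16.5% in place of 8.38%. For them Pcr1 was at 14.6% in place of 8.54% and Atf1 at 16.8% in place of 10.5%. Counting both windows, 52 of the 71 genes (73.2%, 61.4 to 83.1%) had a summit or peak, against 44.1% of other non-coding genes, and 19 had none. This count was not restricted to genes that overlap no protein-coding gene. For other non-coding genes of that kind, the share given above for the first window alone already lies inside the interval.

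**Figure D5:**
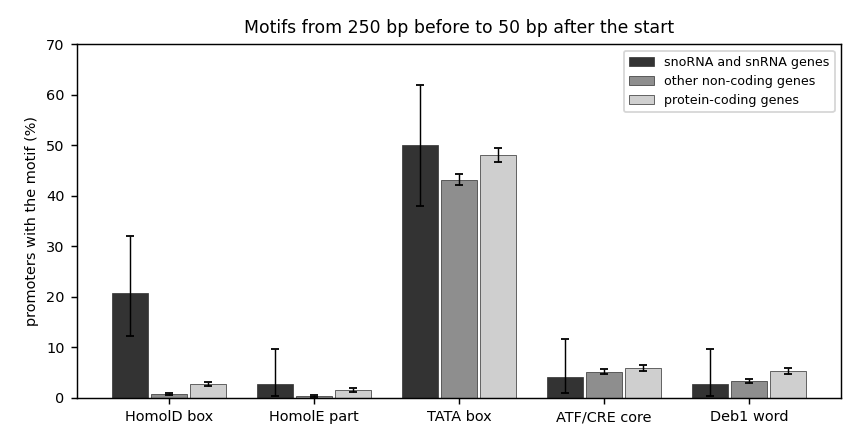
Percentage of promoters (250 bp before to 50 bp after the start) that hold each motif on either strand, for the 72 snoRNA and snRNA genes (dark), other non-coding genes (grey) and protein-coding genes (light), with exact 95% intervals. The HomolD box stands at 20.8% against 0.758% in other non-coding genes and 2.68% in protein-coding genes. The intervals of the HomolE part, the TATA box, the ATF/CRE core and the Deb1 word include the shares of both other groups.

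The promoters were searched for the same short words. The HomolD box CAGTCACA was in 15 of 72 promoters (20.8%, 12.2 to 32.0%), searched on both strands, against 0.758% of other non-coding genes, 2.68% of protein-coding genes and 1.65% of all 12574 promoters. The 15 were snu3, snu4, snR41, snR42, snR46, snR48, snR90, snoR02, snoR56, snoR61, snoR69, snoZ15, sno20, SPNCRNA.723 and SPNCRNA.7474. They stand for 13 separate boxes, since SPNCRNA.723 and snR41, and SPNCRNA.7474 and snR46, share theirs. In 6 of them the box began within 75 bases before the start. Of the 15, snR41, snR46, snR48 and snoZ15 lie inside a longer gene on the same strand. The stretch searched need not be their own promoter. TATAAA on either strand was in 36 of 72 against 45.3% of all promoters, and its position was more particular than its presence. On the gene's own strand and beginning 20 to 45 bases before the start, it was in 12 of 72 (16.7%, 8.92 to 27.3%) against 3.86% of other non-coding and 4.99% of protein-coding genes. Only the presence of the word had been planned, and this narrower place was added later. The 12 were snu1, snu4, snu5, snu6, snu32, sno20, snoR68, snR3, snR30, snR36, snR91 and SPNCRNA.901, of which the last 2 share 1 box, so that there were 11 separate boxes. Of the 12, snR3 and snoR68 lie inside a primary transcript, and their boxes stand within that transcript. AGGGTAGGG, searched after it had been seen in snu4, was in 2 of 72 (2.78%, 0.338 to 9.68%), snu4 and sno20. The share of all promoters, 0.859%, lies inside that interval. GGTAACA was in 2 of 72 (2.78%) against 4.10%.

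A peak was at 8 of the 15 genes with a HomolD box (53.3%, 26.6 to 78.7%), at 18 of the 36 with TATAAA and at 12 of the 28 placed genes with neither (42.9%, 24.5 to 62.8%). These wide intervals overlap, and the difference was not tested. A HomolD box stood within 100 bp of 3 of the 22 Atf1 summits at the genes against 1.46% of the Atf1 list, of 3 of 22 Pcr1 summits against 1.16%, and of 2 of 16 Orc1 summits against 0.398%. The snu4 promoter is among the matches of each of these lists. Promoters of these genes hold the box more often anyway, at 20.8% against 1.65% of all promoters. Summits picked for lying at them are therefore not comparable with a whole list, and no conclusion about the peaks is drawn. Each match is one of letters only.

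The genes for proteins that act with these RNAs were looked at for comparison, from lists of names. Of 8 genes for core proteins of snoRNA particles, 5 had a peak (62.5%), against 42.9% of all protein-coding genes. Gar1, of the box H/ACA particle, had Deb1 at 5.56, Atf1 at 4.27 and Pcr1 at 4.08. Snu13, shared by box C/D particles and the U4 particle, had Orc1 at 2.91 and Deb1 at 2.52, nop58 had Atf1 at 2.29, nop56 had Pcr1 at 2.11, and nhp2 had Pcr1 at 2.17 and Atf1 at 2.07. Of 14 genes for Sm and Lsm proteins, which coat snRNAs, 3 had a peak (21.4%, against 42.9% of protein-coding genes). These were lsm6 with Deb1 at 5.68 and Atf1 at 2.1, lsm2 with Atf1 at 2.71 and Pcr1 at 1.85, and smg1 with Orc1 at 2.23. No interval was computed for such short lists of names, and no difference from protein-coding genes is claimed for them. Of 4 other structured RNA genes, the telomerase RNA gene ter1 had Orc1 at 3.66, Pcr1 at 3.07 and Atf1 at 2.68, and the signal recognition particle RNA gene srp7 had Pcr1 at 3.50, Atf1 at 2.96 and Orc1 at 1.68. No peak was at mrp1 or rrk1, the RNAs of RNase MRP and RNase P.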

How the data were processed

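Per the submitters' processing notes, Bowtie 1.2.3, MACS2 2.1.2 and bedtools were used. Neither settings nor a genome build are given in the sources used here. The 4 deposited lists hold, per peak, interval and summit offset, the fold (a ratio over the control), the −log10 of the q-value and a score, all as the authors gave them. Labels name the untagged sample with the Atf1 list and the inputs with the Deb1 and Orc1 lists; how controls and replicates entered was not stated, and fold and −log10 q were used only to describe and filter peaks within a list. Depth is unknown, so no interval for read depth could be given.

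The summit was the interval's start plus the offset, or the midpoint where the offset pointed outside (128 Atf1, 112 Pcr1, 92 Deb1 and 107 Orc1 peaks). Among peaks counted in the first window, midpoints stand for Pcr1 and Orc1 at snoR69b and Pcr1 at snoZ3. They also stand for Atf1 at snR88 and snoR54, Deb1 at snoU14 and Orc1 at snoR54b. Genes and sequences came from RefSeq ASM294v3. On chromosome 2 right of 2160000, 12220 bp were subtracted from list positions, and 2110000 to 2160000 was left out. Orc1 summits lay within 200 bp of 87.5% of 16 tRNA genes there after this shift, against 6.25% without it, and 12185 bp gave 87.5% too, so the shift is not fixed to the base. On the left part, used as deposited (snu4 and snoU14 lie there), it was 46.2% of 52 tRNA genes, and 68% of the 25 outside the cluster at the centromere, where the median distance was 38 bp; on chromosomes 1 and 3 it was 87.4%, with a median of 25 bp. Kinds of snoRNA came from product names, from TGATGA in the first 20 or CTGA in the last 15 bases, or from ACA in the last 7. The U3 copies were compared by local alignment (Biopython 1.88). Shares were computed with Python 3.11.15 and scipy 1.17.1, and the window rules were tested on simulated peaks. No test was run across genes, since each protein has 1 list. Named were every snRNA gene, genes with a Deb1 peak or with 3 or more lists, the highest folds of each list, and bound genes of the protein lists; the remaining genes with a peak and the genes named for sites beyond the ends were added after values were seen. The genes and lists were chosen with earlier results of these data known. Alternatives were windows, stricter peaks, another shift of 12185 bp, the right part of chromosome 2 left out, merged loci, and subsets of either group of genes.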

Additional observations from a re-analysis of the deposited data

How the results depend on the processing

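No paired analysis was possible because each protein has 1 list and no value per sample. Every share rests on 71 genes, and intervals cover counting error only. Other settings than those named kept the direction and gave values within the interval of the reported share, but that interval is wide, and the cause of the changes was not tested. The subsets of genes that overlap no protein-coding gene, and the window beyond the end, were chosen after seeing the data.

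For peaks in the gene or 500 bp upstream, a −log10 q of at least 10 gave shares of 11.3% for Atf1, 8.45% for Pcr1 and 31.0% for any list, and differences from other non-coding genes of -0.873 points for Atf1 and -1.41 for Pcr1. A fold of at least 3 gave 7.04% for Atf1, 8.45% for Pcr1, 4.23% for Orc1 and 12.7% for any list, with differences of -0.155 points for Atf1, -1.68 for Orc1 and -2.29 for any list. Summits only gave differences of 0.0293 points for Deb1 and -1.05 for Orc1. The window of equal width gave 15.5% for Orc1, 36.6% for any list and a difference of 1.93 points for Deb1. Against other genes that overlap no protein-coding gene the differences were -9.22 points for Atf1, -10.0 for Pcr1, -6.93 for Deb1, -21.7 for Orc1 and -18.0 for any list. Without tRNA and rRNA genes they were -7.69, -7.44, -5.58, -16.3 and -14.5 in the same order. With both sides restricted they were -6.87, -7.59, -6.99, -9.55 and -11.1, with Orc1 at 37.5%. With genes near a coding start left out, the differences were 2.07 points for Pcr1, 8.58 for Orc1 and 7.18 for any list. With the right part of chromosome 2 left out they were 1.13, 1.57 and 7.11 in the same order. With genes inside another gene on the same strand left out they were 14.6, 11.0 and 21.2. With both the restriction and the equal window they were -0.0593 for Atf1, -1.87 for Pcr1, -3.34 for Orc1 and -5.11 for any list.

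For summits beyond the end, 250 bp gave 12.7% for Atf1, 8.45% for Pcr1, 0% for Deb1, 16.9% for Orc1 and 26.8% for any list, with differences of 7.53 points for Atf1, 4.25 for Pcr1, 12.9 for Orc1 and 16.2 for any list. The 1000 bp window gave 40.8% for Atf1 and a difference of -3.36 points for Deb1. A −log10 q of at least 10 gave 7.04% for Atf1, 8.45% for Pcr1 and 35.2% for any list, with differences of 2.57 points for Atf1 and 4.85 for Pcr1. A fold of at least 3 gave 4.23% for Atf1, 7.04% for Pcr1, 2.82% for Orc1 and 9.86% for any list, with differences of 1.81, 4.39, 0.753 and 3.35 points. Only summits inside their interval gave 0% for Deb1. With both sides restricted the Deb1 difference was -2.68 points. The differences for Atf1, Pcr1, Orc1 and any list stayed above 0 in every setting tried for that window.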
